A study of Mus musculus with 8 samples.

Results

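Immediate early genes are transcribed within minutes of a stimulus, from factors that are already in the cell, and most of their mRNAs are short-lived. Fos, Fosb, Jun and Junb encode subunits of the AP-1 transcription factor, Atf3 a related stress factor that can pair with Jun proteins, Egr1 and Egr2 zinc finger factors, Nr4a1 (Nur77) an orphan nuclear receptor induced by antigen receptor signals, and Ier2 a small nuclear protein. Dusp1 encodes a phosphatase that switches off MAP kinases, the kinases through which many of these genes are induced. In lymphoid tissue these genes respond to antigen receptors, cytokines and cell stress, and also to the handling of tissue and cells. The 10 genes named here, of 12393 genes with a probe set of their own on the array, were chosen by name for this class, with earlier results of these arrays known. A probe set annotated to 1 member gene alone was taken as its own. The members had 12 such probe sets of 22626 tested, with 2 each for Jun and Egr2, and the brightest by mean over the arrays stood for the gene.

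Lymph node (LN) was taken from C57Bl/6 wild type (WT) mice and from H3RKO mice, which carry the Hrh3tm1Twl allele that disrupts the histamine H3 receptor gene. All mice were 8 weeks old, both sexes were used, and each of the 8 arrays held RNA pooled from at least 3 mice, with no other allele or agent stated. Each genotype had 2 arrays of untreated animals, 1 of animals injected with complete Freund's adjuvant (CFA, killed mycobacteria in oil) and 1 of animals given CFA with pertussis toxin (PTX, a bacterial toxin that blocks signalling through Gi proteins and is used with CFA to induce autoimmune encephalomyelitis). Injected animals were killed after 24 hours, so induction in the first hours after injection was not sampled. For the CFA+PTX arrays the titles give PTX alone, whereas the descriptions give both agents. With 1 array for each injected group, the spread in limma's tests came from the untreated pairs. For treatment effects and the overall genotype effect it also came from how far the genotypes disagreed in their treatment differences. Moderation in limma further borrowed spread from other probe sets. These p-values therefore measure spread between pools only in part, and that spread may in part be technical.

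Values are log2 signals after robust multichip averaging (RMA), so that a difference of 1 is a 2-fold change. Array medians lay between 7.94 and 8. The arrays carried clear signal for 5 B cell genes, whose mean was 12.23 to 12.52, and for 5 T cell genes, whose mean was 10.96 to 11.25. Hrh3 did not follow the genotype labels in the direction of a loss. Its single probe set read 6.56 to 6.66 in the WT arrays and 7.20 to 7.29 in the arrays labelled H3RKO, and whether its probes lie in the disrupted stretch was not given in the sources used here, so this value checks nothing about the labels. WT and H3RKO are used below as the labels of the arrays. Some arrays stood apart. The WT CFA+PTX array had a mean of 5.51 for 9 salivary and lacrimal gland genes, and the first WT untreated array 9.46, against 11.76 to 12.47 in the other arrays. The mean of 14 neutrophil genes was 7.42 to 7.65 in the WT arrays and 7.80 to 8.56 in the H3RKO arrays, highest in H3RKO CFA+PTX, where the mean of 6 platelet genes was also highest, at 7.31 against 6.65 to 6.99. In bulk tissue, a change in the number of cells of a type cannot be told apart from a change in RNA per cell.

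Promoter stretches of the members that stood out after CFA+PTX are given for reference, with exact matches to a few known control elements next to their starts. The sequences are from RefSeq (build GRCm38.p6). The elements searched, on both strands of the 250 bases before each annotated start, were the CArG box (the serum response element core), the cyclic AMP response element TGACGTCA, the AP-1 site TGANTCA and the EGR site GCGNGGGCG, and no match overlapped another. For Fos and Dusp1, whose signals were highest in both CFA+PTX arrays, the 150 bases before the start are printed 5′ to 3′ on the gene's strand, with any match in capitals. Fos lies on the plus strand of chromosome 12 and its stretch is chr12:85473740-85473889, and Dusp1 lies on the minus strand of chromosome 17 and its stretch is chr17:26508473-26508622.
Fos: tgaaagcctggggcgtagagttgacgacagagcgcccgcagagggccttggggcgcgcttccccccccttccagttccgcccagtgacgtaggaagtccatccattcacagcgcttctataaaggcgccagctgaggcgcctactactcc
Dusp1: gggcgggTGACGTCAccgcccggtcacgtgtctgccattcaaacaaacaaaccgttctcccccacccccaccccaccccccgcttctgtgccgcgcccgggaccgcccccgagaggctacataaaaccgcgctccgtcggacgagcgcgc

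None of these exact elements was found in the bases searched before the Fos start. Near matches and sequence further upstream were not searched, so an absence here does not mean that a gene lacks such control. The Dusp1 stretch held a cyclic AMP response element at -143 to -136. For Fosb and Egr2, the start used lies inside the annotated gene, so only the 30 bases around a match are printed. The Fosb site (minus strand, chr7:19310077-19310106) holds an EGR site at -50 to -42. The Egr2 sites (plus strand, chr10:67537484-67537513 and chr10:67537787-67537816) hold CArG boxes at -72 to -63 of starts 67537566 and 67537869.
Fosb: gtgacgcaagcGCGGGGGCGggtcccggag
Egr2 first site: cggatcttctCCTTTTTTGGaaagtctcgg
Egr2 second site: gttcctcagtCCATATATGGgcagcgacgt

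Of 32851 promoter windows of the same length, 1.47% held a CArG box, 1.55% a cyclic AMP response element, 6.75% an AP-1 site and 4.7% an EGR site. Egr1 and Ier2 had no window searched. Of the 8 members whose windows were searched, 4 held at least 1 element, Nr4a1 with an EGR site on the opposite strand at -60 to -52 of its start. That count is by gene, over 12 windows and any of the elements. Each share above is for a single window and a single element, so it is not a like background for the count. A match is a description of the letters and not evidence of binding.

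The comparison of CFA+PTX with untreated LN asked which members had a different level 24 hours after the full adjuvant protocol. Dusp1, Fos and Fosb were higher in both CFA+PTX arrays than in all 4 untreated arrays, and Egr2 was lower in both. None passed limma's test with Benjamini-Hochberg adjustment over all probe sets, and 0% of probe sets did. At unadjusted p under 0.05, 4 of the 10 members differed, 3 higher and 1 lower, beside 2783 probe sets or 12.3% of all. Over the 10 members, 5 were higher and 5 lower, with a median difference of 0.04 beside 0.01 over all probe sets. Cell type markers differed in the same comparison. All 7 endothelial genes were higher (median 0.20, 3 with unadjusted p under 0.05), as were 10 of 14 neutrophil genes (median 0.25, 5 of them). Lower were 7 of 9 fibroblast and smooth muscle genes (median -0.35, 5 of them), 6 of 6 adipocyte genes (median -0.43, 1 of them) and 9 of 9 gland genes (median -3.26, 1 of them). The gland mean was low in the WT CFA+PTX array alone of the pair, at 5.51 against 12.18 in H3RKO CFA+PTX. In the untreated arrays it was 9.46 to 12.47. Their part in the members' values was not tested.

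Dusp1, the MAP kinase phosphatase, showed the steadiest difference. Its untreated signals were 10.09 and 9.87 in WT and 10.05 and 10.13 in H3RKO. After CFA it read 10.42 in WT and 10.28 in H3RKO, and after CFA+PTX 10.80 and 10.93. The order untreated, CFA, CFA+PTX held in both genotypes with no overlap between the 3 treatments. CFA+PTX exceeded untreated by 0.83 ± 0.09 (SE; 1.78-fold, adjusted p = 0.0826, limma), by 0.82 in WT and 0.84 in H3RKO. All 4 injected arrays lay above all 4 untreated arrays (difference of means 0.58, two-sided exact permutation p = 0.0286, the smallest that 4 against 4 arrays can give, not adjusted over the members).

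Fos, the AP-1 subunit that gave the family its name, had signals of 9.60 and 9.86 in WT untreated and 10.06 and 9.99 in H3RKO untreated LN, of 9.84 and 9.89 after CFA in WT and H3RKO, and of 10.32 and 11.35 after CFA+PTX. The CFA arrays lay inside the untreated range and the CFA+PTX arrays lay above it. The difference between CFA+PTX and untreated was 0.96 ± 0.19 (SE; adjusted p = 0.202, limma), made up of 0.59 in WT and 1.33 in H3RKO. It was 0.55 without the H3RKO CFA+PTX array and 1.37 without the WT CFA+PTX array.

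Fosb, whose protein pairs with Jun proteins as Fos does, followed the same order. Its probe set was dim, with a mean above that of 24.1% of probe sets, so its folds start from a low signal and are less certain. Its signals were 5.38 and 5.64 in WT untreated, 5.45 and 5.73 in H3RKO untreated, 5.27 and 5.48 after CFA in WT and H3RKO, and 6.10 and 7.01 after CFA+PTX. It was near its untreated level after CFA and above it in both CFA+PTX arrays, with a difference of 1.01 ± 0.19 (SE; adjusted p = 0.197, limma). The difference was 0.59 in WT and 1.43 in H3RKO, and without the H3RKO CFA+PTX array it was 0.62. Over the 8 arrays, Pearson's r between Fos and Fosb was 0.959, a description that rests largely on the CFA+PTX arrays both genes share. With both arrays of low gland signal left out, CFA+PTX exceeded untreated by 1.34 for Fos and by 1.39 for Fosb, from the H3RKO CFA+PTX array alone.

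Egr2, an EGR factor linked in T cells to restraint of activation, differed the other way. Its signals were 8.22 and 7.87 in WT untreated, 8.08 and 7.91 in H3RKO untreated, 7.76 and 7.75 after CFA in WT and H3RKO, and 7.19 and 7.61 after CFA+PTX. Each injected array lay below each untreated array (difference of means -0.44, two-sided exact permutation p = 0.0286, again the smallest possible and unadjusted). The difference between CFA+PTX and untreated was -0.62 ± 0.14 (SE; adjusted p = 0.211, limma), with -0.85 in WT and -0.38 in H3RKO. Without the WT CFA+PTX array, which had the lowest gland signal, it was -0.39. The second Egr2 probe set had the same sign, from 7.12 to 7.28 in the untreated arrays to 6.56 in WT and 6.87 in H3RKO after CFA+PTX.

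The separations of these 4 members are common patterns on this array. Both CFA+PTX arrays lay above all 4 untreated arrays for 3 of the 10 members and for 11.3% of probe sets, and below them for 1 member and 10.4% of probe sets. The share of probe sets with all 4 injected arrays on 1 side of the untreated arrays was not counted. That separation of Dusp1 and Egr2 therefore stands without a background share.

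**Figure D1:**
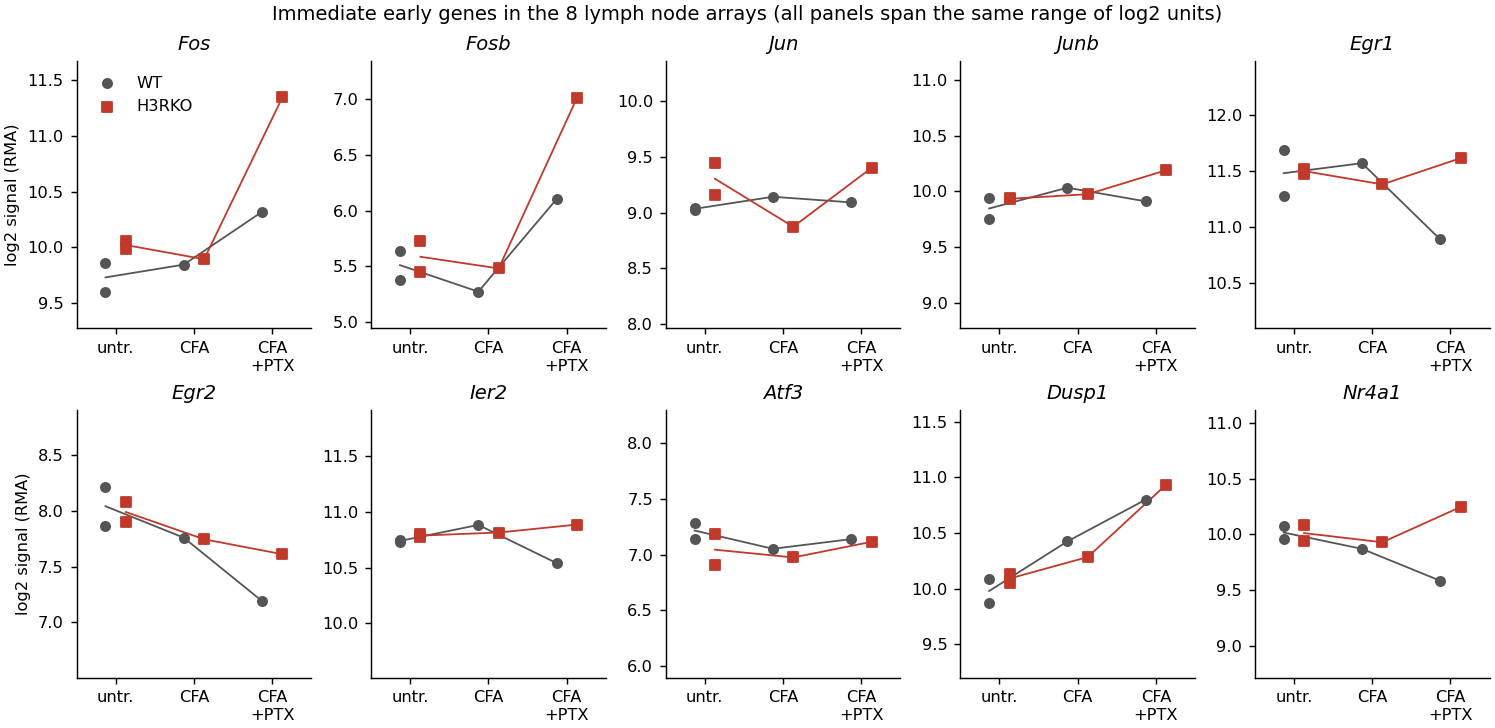
RMA log2 signal (vertical axes, of equal span) of the 10 immediate early genes in untreated, CFA and CFA+PTX lymph node, with WT as grey circles, H3RKO as red squares, 1 point for each array and lines through the group means. Fos and Fosb lie above the untreated range only after CFA+PTX, Dusp1 lies higher after each treatment, up to 10.80 and 10.93, and Egr2 lies lowest at 7.19 in WT.

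No other member had both CFA+PTX arrays outside the untreated range on the same side. Egr1, an EGR factor widely read as a sign of recent activation, read 11.69 and 11.27 in WT untreated, 11.52 and 11.48 in H3RKO untreated, 11.57 and 11.38 after CFA in WT and H3RKO, and 10.89 and 11.62 after CFA+PTX. The low value was that of the WT CFA+PTX array alone. Nr4a1 read 9.96 and 10.07 in WT untreated, 9.94 and 10.08 in H3RKO untreated, 9.87 and 9.93 after CFA, and 9.58 and 10.25 after CFA+PTX. Ier2 read 10.75 and 10.73 in WT untreated, 10.80 and 10.77 in H3RKO untreated, 10.88 and 10.81 after CFA, and 10.54 and 10.89 after CFA+PTX. For these 3 genes the WT CFA+PTX array was the lowest of the 8, as it was for Egr2. That makes 4 of the 10 members, beside 15% of all probe sets with their lowest value in that array.

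Junb, an AP-1 subunit that can restrain Jun in growth control, read 9.94 and 9.75 in WT untreated, 9.93 and 9.94 in H3RKO untreated, 10.03 and 9.97 after CFA in WT and H3RKO, and 9.91 and 10.19 after CFA+PTX. Jun read 9.04 and 9.02 in WT untreated, 9.16 and 9.45 in H3RKO untreated, 9.14 and 8.87 after CFA, and 9.09 and 9.40 after CFA+PTX. Atf3 read 7.29 and 7.14 in WT untreated, 6.90 and 7.18 in H3RKO untreated, 7.05 and 6.97 after CFA, and 7.14 and 7.11 after CFA+PTX. Jun and Atf3 after CFA+PTX lay within the range of the untreated arrays, and the second H3RKO untreated array had the highest Jun signal of all 8.

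The comparison of CFA with untreated LN asked which of these differences were present without the toxin. With CFA, 3 members were higher and 7 lower than untreated, with a median difference of -0.06, beside 0.01 over all probe sets. None passed the adjusted test (0% of probe sets), and at unadjusted p under 0.05 Dusp1 alone differed among the probe sets that stood for the members, beside 6.25% of probe sets (0.32 ± 0.09 SE, adjusted p = 0.676, limma). Without the WT CFA array this difference was 0.19. The second Egr2 probe set also passed that p, at -0.23 ± 0.10 (SE; adjusted p = 0.797). Dusp1, Junb and Ier2 were higher in both CFA arrays than in all 4 untreated arrays, a pattern of 7.75% of probe sets. Egr2 and Nr4a1 were lower in both, a pattern of 6.71%.

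Set directly against CFA, the CFA+PTX arrays were higher for Fosb by 1.18 ± 0.22 (SE; 2.27-fold), for Fos by 0.96 ± 0.22 (SE) and for Dusp1 by 0.51 ± 0.11 (SE), each with adjusted p = 0.855 in limma. These were the 3 members with unadjusted p under 0.05, beside 5.47% of probe sets, and 0% of probe sets passed the adjusted test. CFA+PTX versus untreated and CFA+PTX versus CFA share the CFA+PTX arrays, so they are not separate evidence. Without the H3RKO CFA+PTX array the difference from CFA was 0.79 for Fosb and 0.55 for Fos.

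**Figure D2:**
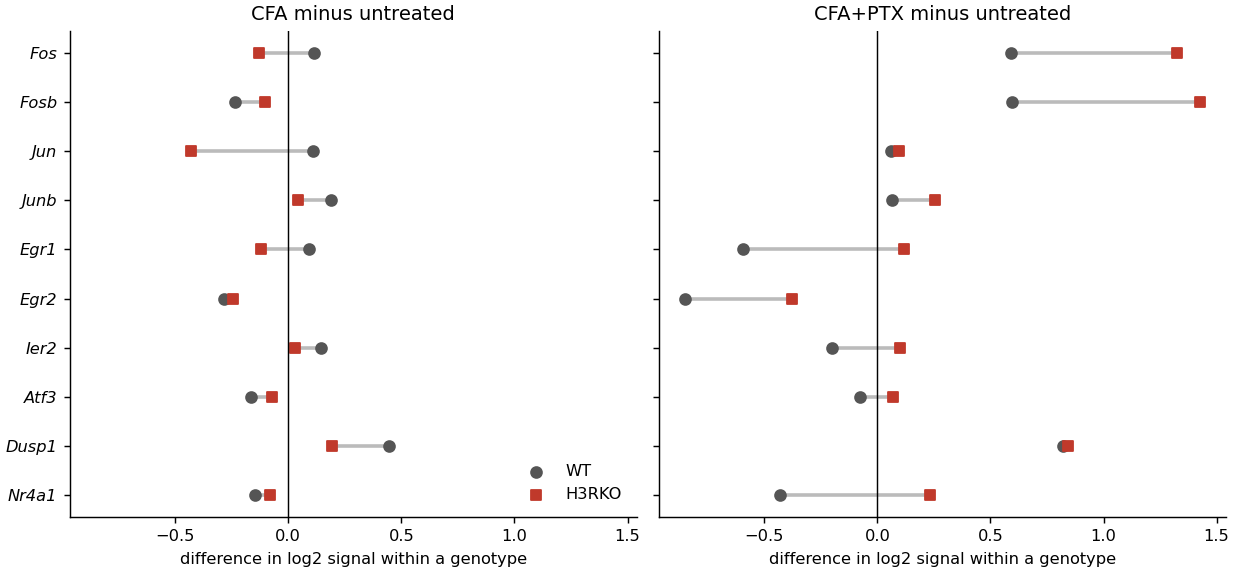
Difference in log2 signal from the untreated mean of the same genotype (horizontal axes) after CFA (left) and CFA+PTX (right) for each member, with WT as grey circles, H3RKO as red squares and a bar joining them. After CFA+PTX the H3RKO point lies to the right of the WT point for all 10 members, by 0.02 for Dusp1 and by 0.83 for Fosb.

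The comparison of genotypes within each treatment asked whether the arrays labelled H3RKO differed from those labelled WT. A call here needed a fold change over 2 and p under 0.05 before adjustment, as in the methods of the study, and limma was fitted with 6 group means. In untreated LN no member met it, beside 0.15% of probe sets. Fos was the only member with p under 0.05, beside 5.43% of probe sets, higher in H3RKO by 0.29 ± 0.12 (SE; adjusted p = 0.916). Without the first WT untreated array, which had low gland signal, the difference was 0.16 and no longer below that p. After CFA no member met the criterion (0.225% of probe sets), and no member had p under 0.05 (3.38%). Fos differed there by 0.05 and Fosb by 0.21.

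After CFA+PTX the H3RKO array was higher for 9 of the 10 members, with a median difference of 0.38, against 43.1% of all probe sets higher and an overall median of -0.02. Fos alone met the criterion, beside 0.362% of probe sets, at 2.04-fold (1.03 ± 0.16 SE, adjusted p = 0.687). Fosb was 1.88-fold higher (0.91 ± 0.20 SE), Egr1 1.66-fold (0.73 ± 0.21 SE), Nr4a1 1.58-fold (0.66 ± 0.14 SE) and Ier2 1.27-fold (0.35 ± 0.12 SE), each with adjusted p = 1 in limma. That is 5 of the 10 members with unadjusted p under 0.05, beside 3.24% of probe sets, and Ier2 lost that p when either H3RKO untreated array was left out. Fosb and Egr1 lost it without limma's moderation. Dusp1 differed by 0.13 ± 0.15 (SE) and Atf3 by -0.02. Egr2 was higher in H3RKO by 0.42 ± 0.20 (SE), and its second probe set by 0.31. The second Jun probe set was higher by 0.41 ± 0.16 (SE), with unadjusted p under 0.05, and the first by 0.31 ± 0.17 (SE).

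These values rest on 1 array against 1 array. The WT array of that pair had the low gland signal, and the H3RKO array had the highest neutrophil and platelet signal. Of the neutrophil genes 13 of 14 were higher in H3RKO than in WT after CFA+PTX, with a median difference of 1.22. Of the 9 gland genes 9 were higher, with a median of 7.96, while 7 of 7 endothelial genes (median -0.25), 8 of 8 skeletal muscle genes (median -0.41) and 8 of 9 macrophage and monocyte genes (median -0.20) were lower. The part of these signals in the result for Fos and the other members was not tested. The array labelled H3RKO CFA+PTX was the highest of the 8 for 6 members, Fos, Fosb, Junb, Ier2, Dusp1 and Nr4a1, beside 6.56% of probe sets.

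**Figure D3:**
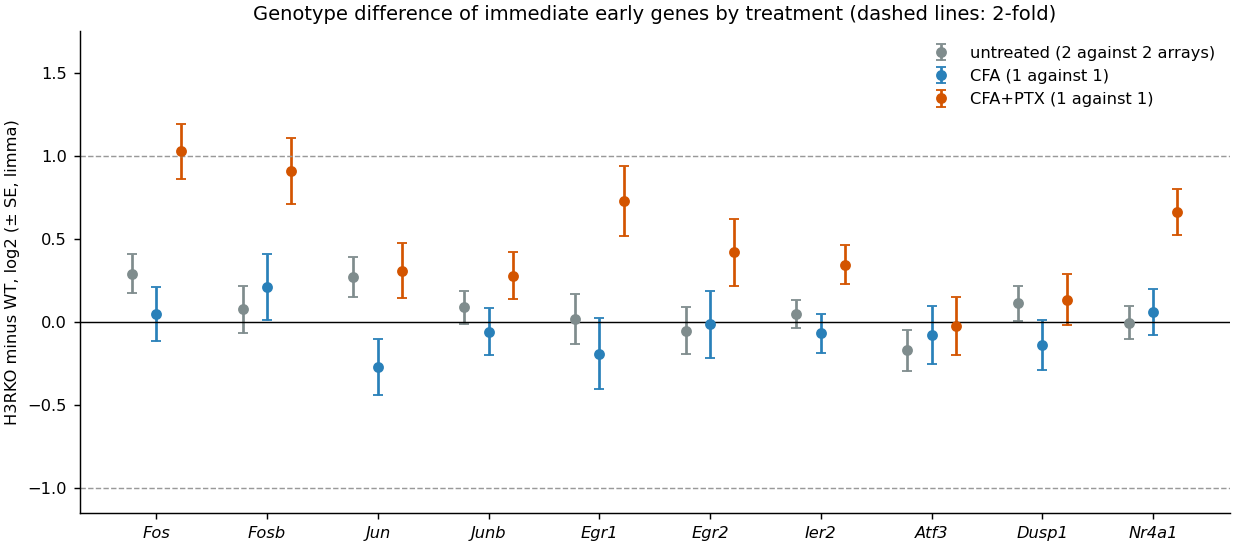
H3RKO minus WT in log2 signal (vertical axis, ± SE from limma) for each member in untreated (grey, 2 against 2 arrays), CFA (blue, 1 against 1) and CFA+PTX (orange, 1 against 1) lymph node, with dashed lines at a 2-fold change. After CFA+PTX 9 of 10 points lie above 0 and Fos, at 1.03, is the member past the line.

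The difference between genotypes in their treatment effect was then tested itself. For CFA+PTX it was positive for 10 of 10 members, with a median of 0.38, beside 46.4% of probe sets positive. For Dusp1 (0.02 ± 0.19 SE) and Jun (0.04 ± 0.21 SE) it was smaller than its SE and changed sign under some alternative settings. The second Jun probe set gave 0.36 ± 0.20 (SE), so the size for Jun depends on the probe set. No member met the criterion (0.265% of probe sets). At unadjusted p under 0.05 there were 4 members beside 2.85% of probe sets, namely Nr4a1 (0.67 ± 0.17 SE), Fos (0.74 ± 0.20 SE), Fosb (0.83 ± 0.24 SE) and Egr1 (0.71 ± 0.26 SE), each with adjusted p = 1 in limma. The patterns behind these values were of different kinds. Fos and Fosb were above untreated in both genotypes and further above it in H3RKO. Egr1 and Nr4a1 were below untreated in the WT array (-0.59 and -0.43) and slightly above it in H3RKO (0.12 and 0.23). None of the 4 members kept an unadjusted p under 0.05 without limma's moderation. All of these differences use the WT CFA+PTX array and cannot be computed without it. Without the first WT untreated array they were 0.87 for Fos, 0.96 for Fosb, 0.50 for Egr1 and 0.72 for Nr4a1, and Egr1 lost the unadjusted p under 0.05 when either H3RKO untreated array was left out.

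For CFA the same test gave no member past the criterion (0.667% of probe sets), and Jun alone with p under 0.05 (5.72% of probe sets), at -0.54 ± 0.21 (SE; adjusted p = 0.848, limma). The second Jun probe set, with signals of 8.18 to 8.59, gave 0.00 ± 0.20 (SE), so the probe sets of this gene disagree.

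Over all treatments, 9 of 10 members were higher in H3RKO, with a median of 0.12, beside 47.7% of all probe sets higher. The sign changed for Egr1, Egr2, Dusp1 and Nr4a1 under some alternative settings. In the same comparison 14 of 14 heat shock genes (median 0.06), 14 of 14 neutrophil genes (median 0.52) and 9 of 9 gland genes (median 2.52) were higher. Of these, 2 heat shock, 7 neutrophil and 0 gland genes had unadjusted p under 0.05. Heat shock genes higher in H3RKO were 12 of 14 in untreated LN (median 0.12). They were 8 of 14 after CFA (median 0.04) and 8 of 14 after CFA+PTX (median 0.01). The part of the heat shock, neutrophil and gland genes in the members' values was not tested. Fos had the lowest p (0.41 ± 0.15 SE, adjusted p = 0.999, limma), the single member with unadjusted p under 0.05 beside 3.64% of probe sets, and 0% of probe sets passed after adjustment. With either CFA+PTX array left out the difference was 0.21, and with both arrays of low gland signal left out it was 0.11. No member had all 4 H3RKO arrays above all 4 WT arrays, a pattern of 0.743% of probe sets, and the lowest two-sided exact permutation p among the members was 0.229, for Atf3.

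The genes around these 10 were described from lists of related genes. Of 39 other measured immediate early genes, 29 were higher and 10 lower after CFA+PTX than in untreated LN, with a median of 0.10 beside 0.01 over all probe sets. None passed the adjusted test in limma, and 8 were higher and 1 lower at unadjusted p under 0.05, beside 12.3% of all probe sets. The largest differences were those of Errfi1, a feedback inhibitor of the EGF receptor (0.80 ± 0.25 SE, adjusted p = 0.291), and Klf4, a zinc finger factor of quiescence and of myeloid cells (0.63 ± 0.06 SE, adjusted p = 0.0625). Klf4 read 8.89 to 9.05 in the untreated arrays, 9.13 and 9.04 after CFA in WT and H3RKO, and 9.69 and 9.51 after CFA+PTX. Errfi1 overlapped between groups, since the first WT untreated array, at 10.51, lay between the CFA+PTX arrays at 10.74 and 10.46.

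Ccn1, a matricellular protein gene induced by serum, was the single gene of the lists of related genes past the criterion in the test of genotype by CFA+PTX, apart from the cell type markers (1.10 ± 0.23 SE, adjusted p = 1, limma). It read 7.91 to 8.33 in the untreated arrays, 8.56 and 8.42 after CFA in WT and H3RKO, and 7.96 and 8.88 after CFA+PTX. Its probe set is of a kind that can share probes with other transcripts.

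The partners and regulators of the members differed by less than Fos, Fosb and Dusp1 did. In CFA+PTX versus untreated, 12.3% of all probe sets had unadjusted p under 0.05, the share to set beside each count below. Of 13 other AP-1 and ATF family genes, 5 were higher and 8 lower after CFA+PTX, and none had unadjusted p under 0.05. Atf6 (0.15) and Jdp2 (0.15) had the largest differences. Of 12 Dusp and Sprouty family inhibitors, 6 were higher and 6 lower, and the 2 with unadjusted p under 0.05 were both lower, Spred2 (-0.35 ± 0.07 SE) and Dusp6 (-0.30 ± 0.10 SE), which is itself a target and a brake of ERK signalling. Of 21 genes of the MAP kinase cascade and the factors it acts on, 10 were higher and 11 lower, with Mrtfa (0.24) and Creb1 (-0.24) at unadjusted p under 0.05.

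Heat shock genes also respond to stress during tissue handling. Of 14 measured, 13 had lower values after CFA+PTX than in untreated LN and 1 a higher value, with a median of -0.21, beside 51.6% of all probe sets higher. Of these, 6 had unadjusted p under 0.05 (0 after adjustment, limma), beside 12.3% of all probe sets. Hspa1b, an inducible HSP70 gene, differed by -0.66 ± 0.23 (SE; adjusted p = 0.318) and Hsph1, a co-chaperone, by -0.52 ± 0.11 (SE; adjusted p = 0.203). Hspa1b read 8.16 and 7.97 in WT untreated, 7.94 and 8.76 in H3RKO untreated, and 7.67 and 7.42 after CFA+PTX in WT and H3RKO. Hsph1 read 10.32 and 10.46 in WT untreated, 10.81 and 10.87 in H3RKO untreated, and 10.09 and 10.10 after CFA+PTX. The untreated H3RKO arrays thus add to these pooled differences. After CFA 14 of 14 heat shock genes were lower, with a median of -0.14, beside 53.1% of all probe sets higher.

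**Figure D4:**
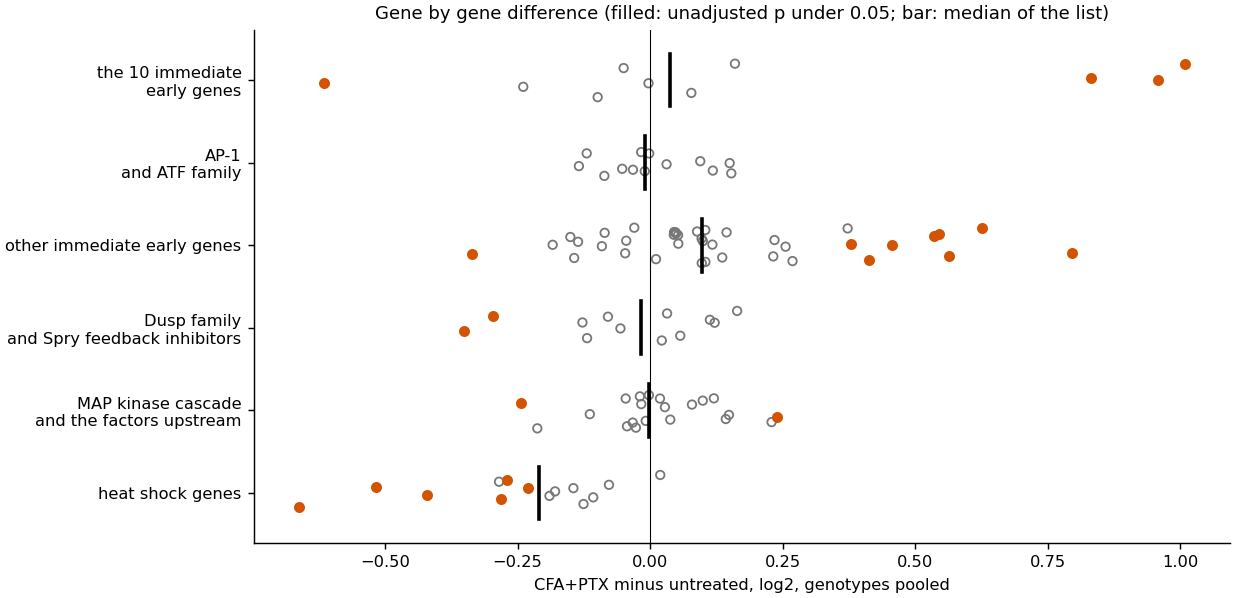
CFA+PTX minus untreated in log2 signal with the genotypes pooled (horizontal axis) for each gene of 6 groups, with filled points at unadjusted p under 0.05, open points otherwise and a bar at the median. Fos, Fosb and Dusp1 lie furthest to the right at 0.83 to 1.01, other immediate early genes have a median of 0.10, and heat shock genes have a median of -0.21.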

How the data were processed

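The authors hybridized RNA of LN pools to single-colour Affymetrix mouse gene arrays and deposited log2 RMA values, background corrected, normalized and summarized in Partek Genomics Suite per the methods. RMA pulls the arrays to 1 distribution, so a shift of all genes is not seen, and it compresses small differences of dim probe sets. The number of arrays limits the precision. Of 22690 probe sets, 64 controls were left out. Genes were named from the platform annotation, with 20380 probe sets of 1 gene, 691 of several and 1555 of none.

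Treatment effects and the overall genotype effect were fitted with limma 3.58.1 in R 4.3.3 as an additive model (4 residual and 3.28 prior degrees of freedom) and called at a Benjamini-Hochberg adjusted p under 0.05. Genotype effects within a treatment and interactions came from a model with 6 group means (2 residual and 3.58 prior degrees of freedom), called at the study's criterion. Single members were also tested by exact permutation over arrays. The tests were tested on simulated data. Alternatives covered moderation, normalization, dim and cross-hybridizing probe sets, probe set averaging, a replicate block, thresholds and each array left out, and 1 more, leaving out both arrays of low gland signal, was added after the data were seen. The members and lists were chosen with earlier results of these data known. The rule for named genes was all 10 members and, in each list, up to 4 genes that passed a comparison's call or otherwise the 2 with the largest difference, in the comparisons that the text describes.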

Additional observations from a re-analysis of the deposited data

Results flagged for a closer look

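For 5 members the difference between the genotypes in their treatment effect had an unadjusted p under 0.05 in limma's test of that difference. These were 4 of the 10 members for CFA+PTX, beside 2.85% of all probe sets. For CFA it was 1 of the 10, beside 5.72%, which is near that share. None of the 5 remained after adjustment. For CFA+PTX against untreated, H3RKO minus WT was 0.74 for Fos, 0.83 for Fosb, 0.71 for Egr1 and 0.67 for Nr4a1, each with adjusted p = 1. For CFA against untreated it was -0.54 for Jun (adjusted p = 0.848), and 0.00 on the second Jun probe set.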

How the results depend on the processing

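Of 315 recomputed values of the 20 member differences with unadjusted p under 0.05, none changed direction and 3, all of Dusp1 in CFA+PTX versus untreated, passed the adjusted threshold. Since no member passed it in the reported fits, the others say nothing about stability. The unadjusted p under 0.05 was lost in 33 of the 315 values, by 11 of the 20 differences, most often by Fos in untreated LN (8 values), Jun in the interaction with CFA (7) and Fos over all treatments (6). Of the other 70 differences, 31 changed sign under some alternative, none of them larger than 0.24 in size. For CFA+PTX versus untreated the number of members called was 0, and it was 1 (Dusp1) with a trended and robust prior, with dim probe sets left out and with own probe sets averaged, where 33, 11 and 13 of all probe sets or genes were called. Leaving out dim probe sets also leaves out Fosb. The adjusted p of Dusp1 ran from 0.0176 with the trended prior to 0.6 with both arrays of low gland signal left out. At the study's criterion 1 member (Fosb) was called in CFA+PTX versus untreated and 1 (Fosb) in CFA+PTX versus CFA, beside 35 and 15 of 22626 probe sets. For H3RKO versus WT after CFA+PTX the number was 1, became 0 at an adjusted p under 0.05 (2 probe sets) and 4 at a fold change over 1.5 (189 probe sets), and for the interaction of genotype with CFA+PTX it went from 0 to 4 at a fold change over 1.5 (264 probe sets). The cause was not tested beyond the thresholds named.

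Whether the replicate numbers shared by the untreated arrays pair them cannot be told. The deviations of same-numbered arrays correlated at 0.123, but with only 2 pairs this value cannot decide it. With a replicate block the number of members called changed in no comparison, and the number of probe sets past the study's criterion went from 34 to 62 in untreated LN, from 82 to 128 after CFA+PTX and from 60 to 98 for the interaction with CFA+PTX.

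Leaving out 1 array moved some differences by over 1.5 times. Fos in CFA+PTX versus untreated lay between 0.55 and 1.37 and Fosb between 0.62 and 1.40, in both cases lowest without H3RKO CFA+PTX, while Egr2 lay between -0.84 and -0.39 and Dusp1 between 0.78 and 0.88. Single arrays for the injected groups limit what these differences can show.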

Other observations

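By Pearson's r over the 8 arrays, among 7006 genes compared, the pattern most like that of Fos was shown by Tent5c (0.925), Ttc13 (0.919) and Foxo3 (0.915). Tent5c encodes a poly(A) polymerase and Foxo3 a forkhead factor. Foxo3 (0.833) and Btg2 (0.816), an antiproliferative gene that is itself induced early, were also among the genes most like the mean of the 10 members. After CFA+PTX, Btg2 read 11.14 in WT and 11.52 in H3RKO, against 11.11 to 11.35 in the other arrays. These correlations are descriptions over arrays that differ in treatment, genotype and tissue makeup.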
